A study of Mus musculus with 2 samples.

Results

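The HSP70 and HSP110 chaperones were described in 2 RNA sequencing libraries of CD4+ T cells from mouse spleen. The genes are 10 of the 24346 gene symbols in each table: the cytosolic HSP70 genes Hspa8, Hspa1a, Hspa1b and Hspa2, the HSP110 genes Hsph1, Hspa4 and Hspa4l, mitochondrial Hspa9, microsomal Hspa13 and ribosome-associated Hspa14. They were found by exact symbol, and all 10 were present. The family was chosen by its measured FPKM ratios: chaperone genes, Hsph1 and Hspa4l among them, had some of the highest ratios between these same 2 libraries. The ratios below are therefore a description of the family and not a test of it.

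One library came from animals treated with probucol, an antioxidant compound that lowers blood cholesterol, and 1 from untreated animals. Both groups were labelled HFD-MI and sampled at day 14, and the series title places them in a study of the heart after myocardial infarction. Both file headers include HypoE, a term with no explanation in the labels. Nothing on genotype, strain, age or the number of animals behind each library is given in the sources used here. With 1 library in each group there is no replicate check, no p-value is given, and every interval is a 95% interval of counting error. In bulk RNA, fewer cells of a type and less RNA per cell cannot be told apart.

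HSP70 proteins bind exposed hydrophobic stretches of unfolded proteins and release them in a cycle driven by ATP. J-domain proteins deliver clients and start ATP hydrolysis, and nucleotide exchange factors, among them the HSP110 proteins, free the ADP so that the client can leave. Part of the family is made at all times, and part is switched on by heat shock factor 1 when unfolded proteins build up. T cells raise several of these genes when they are activated.

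The T cell label fitted the defining genes. The 8 T cell identity genes found in the table, Cd4, Cd3e and Lck among them, summed to 5041 FPKM (fragment numbers corrected for transcript length in kilobases and for sequencing depth) with probucol and 5189 FPKM untreated, with a median log2 ratio of -0.03. Steps in the low values put the depth at about 1.01e+07 fragments in each library. With probucol 14289 symbols were above 0, against 16876 untreated. Of the 10 B cell markers, 6 had a mean FPKM of 1 or more and all 6 were at least 2-fold higher with probucol, against 1.62% of all genes compared; the list summed to 63.6 against 22.8 FPKM, with Pax5 at 0 in both. Erythroid markers summed to 374 against 1197 FPKM, with 10 of 10 compared genes lower. Natural killer markers summed to 7.78 against 18.03 FPKM, with Klra8 at 0 in both and 4 of 5 compared genes lower. The other compared gene of that list, Klrb1c, was at 1.82 and 1.57 FPKM with probucol and untreated. Ncr1, too low to be compared, was also higher with probucol, at 1.04 and 0.080 FPKM on about 13 and 1 fragments. Plasma cell, macrophage, neutrophil, dendritic cell and platelet markers summed to 106, 159.8, 1077, 2.85 and 5.09 FPKM with probucol and to 92.6, 159.9, 960.4, 3.48 and 2.80 FPKM untreated. Of their compared genes 3 of 4, 5 of 7, 7 of 8, 0 of 1 and 1 of 2 were higher with probucol, against 52.7% of all genes compared. At least 2-fold higher were Mzb1 of the plasma cell, Elane and Mpo of the neutrophil and Pf4 of the platelet markers, and 0 were at least 2-fold lower. Pf4 rests on about 7 and 1 fragments, and the interval of its fold held equality (0.645 to 226). Itgax, Batf3 and Clec9a, all dendritic cell markers, were at 0 untreated. Of the CD8 T cell genes, Cd8a was at 0.139 and 0.276 FPKM with probucol and untreated, and Cd8b1 at 15.9 and 19.6 FPKM. The part of these cells in the chaperone values was not tested.

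Some family members are so alike in sequence that short reads cannot always be assigned to 1 of them. Hspa1a and Hspa1b, the classical heat-inducible HSP70 genes, lie 9951 bases apart on chromosome 17 of mm10, each as 1 exon on the minus strand. Their coding sequences of 1923 and 1926 bases were 99.4% identical, with 8 differing and 3 gapped bases. The likeness goes on upstream of the genes. The 250 bases before the transcript start, shown here because both copies carry the same elements at the same places, differed at 3 positions. They come from RefSeq on GRCm38.p6, minus strand, at chr17:34972157-34972406 for Hspa1a and chr17:34959239-34959488 for Hspa1b. Capitals mark a pair of heat shock units (GAA and TTC with 2 bases between them) and an inverted CCAAT box (ATTGG), both promoter elements known from heat shock genes.
Hspa1a: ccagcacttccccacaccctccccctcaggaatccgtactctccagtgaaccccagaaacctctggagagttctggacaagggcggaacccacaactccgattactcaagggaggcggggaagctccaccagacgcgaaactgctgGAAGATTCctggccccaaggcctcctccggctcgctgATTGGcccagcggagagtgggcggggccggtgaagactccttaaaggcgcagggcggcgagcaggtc
Hspa1b: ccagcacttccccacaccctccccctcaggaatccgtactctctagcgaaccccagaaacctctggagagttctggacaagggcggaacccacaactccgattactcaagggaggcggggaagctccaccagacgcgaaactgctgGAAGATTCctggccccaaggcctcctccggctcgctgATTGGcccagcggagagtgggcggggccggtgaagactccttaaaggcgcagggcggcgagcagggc

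The heat shock units begin 104 bases and the inverted CCAAT box 67 bases before the start in both copies. For Hsph1, the most abundant of the HSP110 genes, 2 stretches of 30 bases are shown because they hold its heat shock units; its CCAAT boxes lie outside them. The first, chr5:149636345-149636374 on the minus strand, has its capitals 33 bases before the first of 2 RefSeq starts and 54 bases before the second. The other, chr5:149636287-149636316, lies after the first start and holds 3 alternating units in a row (TTC, GAA and TTC, each 2 bases apart) from base 37, or base 16 counted from the second start.
Hsph1 before the start: aatctTTCTCGAAggctcgagaagaaggaa
Hsph1 after the start: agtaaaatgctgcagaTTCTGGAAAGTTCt

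Promoter windows of 250 bases before to 50 after a RefSeq start were on hand for 7 of the 10 genes, and Hspa8, Hspa9 and Hspa13 had no entry. The 3-unit motif (alternating GAA and TTC units, beginning with either, with 2 bases between neighbours, on either strand) stood in 1 of the 7, Hsph1. Over all promoters it stood in 0.603% of 32851 windows and in 0.662% of the 27025 genes with a window. The 2-unit motif (GAA then TTC or TTC then GAA at the same spacing, on either strand) overlaps every 3-unit match. It stood in 3 of the 7, Hsph1, Hspa1a and Hspa1b, and in 15.1% of all windows and 17.0% of all genes with a window. A CCAAT box on either strand stood in 5 of the 7, and in 37.4% of all windows and 41.1% of all genes with a window. Hspa4l and Hspa4 held none of these letters in their windows. For Hspa4l the window lies around the RefSeq start at 40745613, and the annotated gene begins upstream of the window, at 40744495. Bases around that earlier start were not searched. A match describes letters only, and the windows of Hspa1a and Hspa1b are copies of each other.

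**Figure D1:**
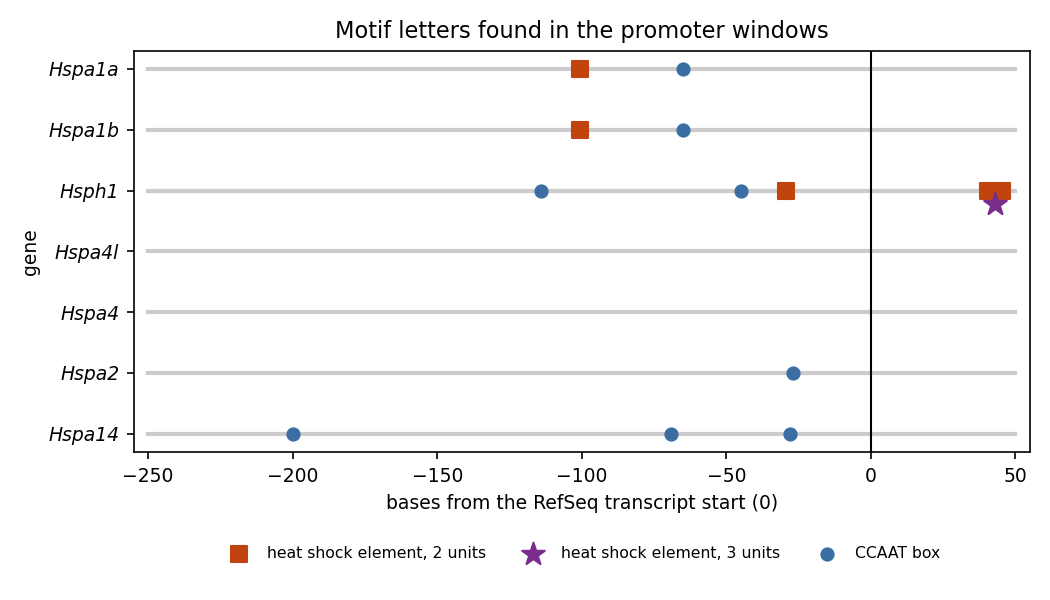
Motif letters in the promoter windows of the 7 genes with an entry, by distance in bases from the RefSeq transcript start (for Hsph1, the first of 2 starts). Marks stand at the centre of each match: squares mark 2 heat shock units, the star marks 3 units and circles mark CCAAT boxes on either strand; the units of Hspa1a and Hspa1b begin 104 bases before the start, and Hspa4l and Hspa4 have no mark.

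Among the cytosolic HSP70 genes, Hspa8 carried nearly all of the message. Hspa8 (ENSMUSG00000015656, chromosome 9, 40800984 to 40810087, mm10), the constitutive HSC70 that also strips clathrin from vesicles, measured 4193 FPKM with probucol against 2856 FPKM untreated. It stood at place 14 and place 31 of all symbols ranked by FPKM in the 2 libraries. Its level was 1.47-fold higher with probucol (1.45 to 1.48), on about 83707 and 57016 fragments. Hspa8 has many processed copies in the genome: 74.8% of the 50-base windows of its longest transcript stood letter for letter in transcripts of 13 other annotated genes, 12 of them pseudogenes. None of those 13 was listed in the tables, so how fragments were shared out between Hspa8 and its copies was not tested, and the narrow interval does not cover it.

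The inducible copies Hspa1a and Hspa1b were low in both libraries. Hspa1a (chromosome 17, 34969190 to 34972156) measured 3.79 FPKM with probucol against 1.27 FPKM untreated, a 2.98-fold higher level (2.02 to 4.51) on about 105 and 35 fragments. Hspa1b (chromosome 17, 34956436 to 34959238) was at 7.82 and 5.45 FPKM, 1.44-fold higher (1.15 to 1.79). The copies thus had folds that differed, and the ratio of Hspa1b to Hspa1a was 2.06 with probucol and 4.28 untreated. Of the 50-base windows of Hspa1a, 58.8% also stood in Hspa1b, and 62.3% of those of Hspa1b also stood in Hspa1a, so the split between the copies is uncertain. Windows shared with Gm20481 (16.2% of those of Hspa1a and 10.8% of those of Hspa1b) and with Hspa1l (7.95% and 6.79%) bear on the sum of the copies as well. That sum does not depend on the split between the copies. It was 11.6 FPKM with probucol and 6.72 FPKM untreated, 1.73-fold higher (1.43 to 2.09). The fold itself was under 2, but its interval runs past 2. An annotated gene on the other strand, Gm20481, overlaps Hspa1a, and no strand-specific counting is named in the labels. The neighbouring Hspa1l, an HSP70 gene of the male germ line that starts 546 bases from Hspa1a and is read the other way, was at 0.273 and 0.9499 FPKM, 3.49-fold lower (1.36 to 10.6) on about 6 and 21 fragments.

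Hspa2 (chromosome 12, 76404176 to 76406938), known for its role in sperm formation, was the 1 member whose counting interval lay wholly on the lower side with probucol. It measured 2.64 FPKM with probucol against 4.40 FPKM untreated, 1.67-fold lower (1.20 to 2.33), on about 61 and 102 fragments. No 50-base window of Hspa2 stood in another annotated gene. Like those of Hspa1a and Hspa1b, its longest coding transcript is annotated as 1 exon. These 3 genes spanned only 1.27 to 7.82 FPKM.

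**Figure D2:**
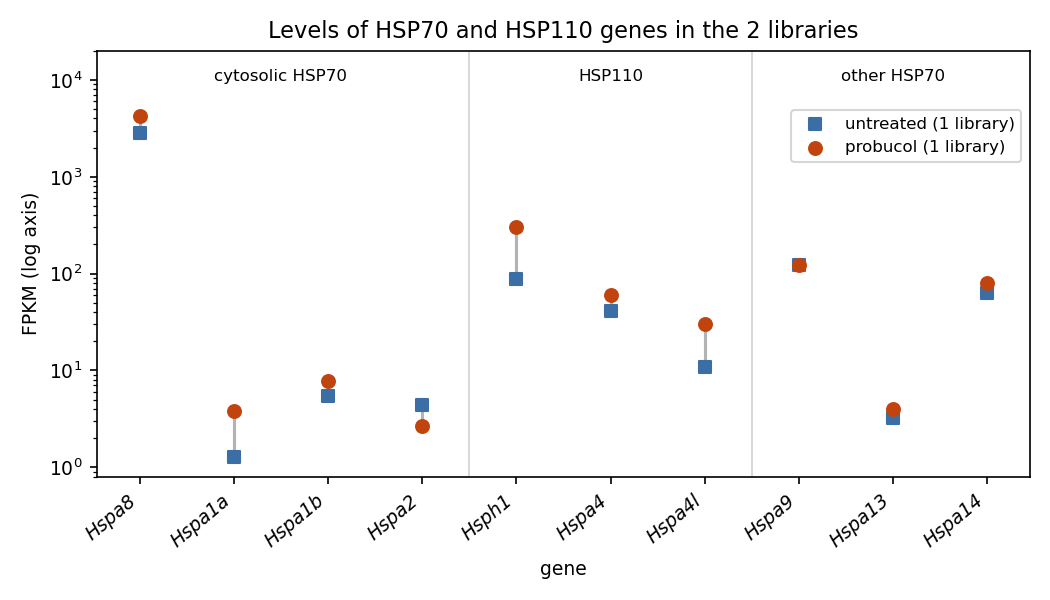
FPKM of each gene on a log axis, with 1 square for the untreated library and 1 circle for the probucol library, grouped into cytosolic HSP70, HSP110 and other HSP70 genes. Hspa8 lies far above the rest at 4193 and 2856 FPKM, Hsph1 shows the widest gap among the abundant genes, and the points of Hspa9 coincide.

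All 3 HSP110 genes, whose proteins serve as nucleotide exchange factors and hold unfolded proteins, were higher with probucol. Hsph1 (ENSMUSG00000029657, chromosome 5, 149614287 to 149636376), the heat-inducible HSP105, measured 299.8 FPKM with probucol against 87.4 FPKM untreated. It was 3.43-fold higher (3.28 to 3.58), on about 8964 and 2610 fragments. Its place among all symbols by level was 387 with probucol and 1327 untreated. Of the 2291 genes with a mean FPKM of 50 or more, 18 had a higher ratio than Hsph1, and all 18 were microRNA, small nucleolar or small nuclear RNA symbols. None of the 50-base windows of Hsph1 stood in another annotated gene.

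Hspa4l (chromosome 3, 40744495 to 40796103), heat-inducible in mouse and also called APG-1, measured 30.01 FPKM with probucol against 10.8 FPKM untreated, 2.77-fold higher (2.53 to 3.04). Hspa4 (chromosome 11, 53259814 to 53300457), the constitutive APG-2, was at 59.4 and 41.1 FPKM, 1.45-fold higher (1.36 to 1.54). The level of Hspa4 was thus 3.80 times that of Hspa4l untreated and 1.98 times with probucol. The coding sequences of the 3 HSP110 genes were 62.3% to 66.2% identical to each other, and each was 43.2% to 46.8% identical to the 4 cytosolic HSP70 genes. Hspa4, like Hsph1, shared no 50-base window with another annotated gene, and Hspa4l shared 0.626% of its windows.

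The HSP70 genes of other places in the cell were nearer to equal. Hspa9 (chromosome 18, 34937414 to 34954357), mortalin, which pulls proteins into mitochondria, measured 121 FPKM with probucol against 123 FPKM untreated. Its ratio was 0.985 (0.940 to 1.03), on about 3459 and 3505 fragments, and the sign of its log2 ratio of -0.02 turned when the libraries were rescaled to the same sum. Hspa14 (chromosome 2, 3488850 to 3512814), part of a complex that sits on the ribosome, was at 80.1 and 62.4 FPKM, 1.28-fold higher (1.18 to 1.40). Another annotated gene, Gm45902, overlaps Hspa14 on the same strand and shares 15.6% of its windows. Hspa13 (chromosome 16, 75745431 to 75767104), a microsomal HSP70 without the substrate-binding part, was at 4.003 and 3.24 FPKM, a ratio of 1.24 with an interval that held equality (0.949 to 1.62).

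Read down by level, the order of the genes was largely the same in both libraries. Untreated it ran Hspa8, Hspa9, Hsph1, Hspa14, Hspa4, Hspa4l, Hspa1b, Hspa2, Hspa13 and Hspa1a. With probucol Hsph1 stood above Hspa9, and Hspa2 stood last, below Hspa13 and Hspa1a. The counting intervals of neighbours overlapped untreated for Hspa1b with Hspa2 and Hspa2 with Hspa13, and with probucol for Hspa13 with Hspa1a and Hspa1a with Hspa2. The order among these low genes is therefore not fixed by the depth. For every other neighbouring pair the intervals were apart.

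Set against all genes compared, the family stood toward the high side. All 10 genes had a mean FPKM of 1 or more, and each was also at 1 FPKM or more in both libraries. On the scale of log2 of FPKM + 1, 3 of the 10 were at least 2-fold higher with probucol (Hsph1 at 1.77, Hspa4l at 1.39 and Hspa1a at 1.08) and 0 were at least 2-fold lower. Over the 10663 genes compared the shares were 1.62% and 1.98%. By any amount, 8 members were higher and 2 lower, beside 52.7% of all genes higher. The median log2 ratio was 0.49 over the members and 0.02 over all genes. Since the genes were taken up for these ratios, nothing about the family follows from those counts.

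The inducible and the constitutive genes, classed by what is known of them in mouse, overlapped in their ratios through Hspa1b alone. The 4 inducible genes, Hsph1, Hspa4l, Hspa1a and Hspa1b, had log2 ratios of 0.45 to 1.77 with a median of 1.23. The 6 constitutive or tissue-restricted genes had ratios of -0.57 to 0.55 with a median of 0.30, and none was at least 2-fold apart. Hspa1b, at 0.45, lay below Hspa8 at 0.55 and Hspa4 at 0.52, and the counting interval of its fold held both of theirs. The split between Hspa1a and Hspa1b is uncertain, and their sum stood at 0.71, above every constitutive gene. The interval of the summed fold (1.43 to 2.09) still held the folds of Hspa8 and Hspa4. The summed level of the inducible genes was 341 FPKM with probucol and 105 FPKM untreated, of which Hsph1 alone made 299.8 and 87.4. The summed level of the constitutive genes was 4460 and 3090 FPKM.

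**Figure D3:**
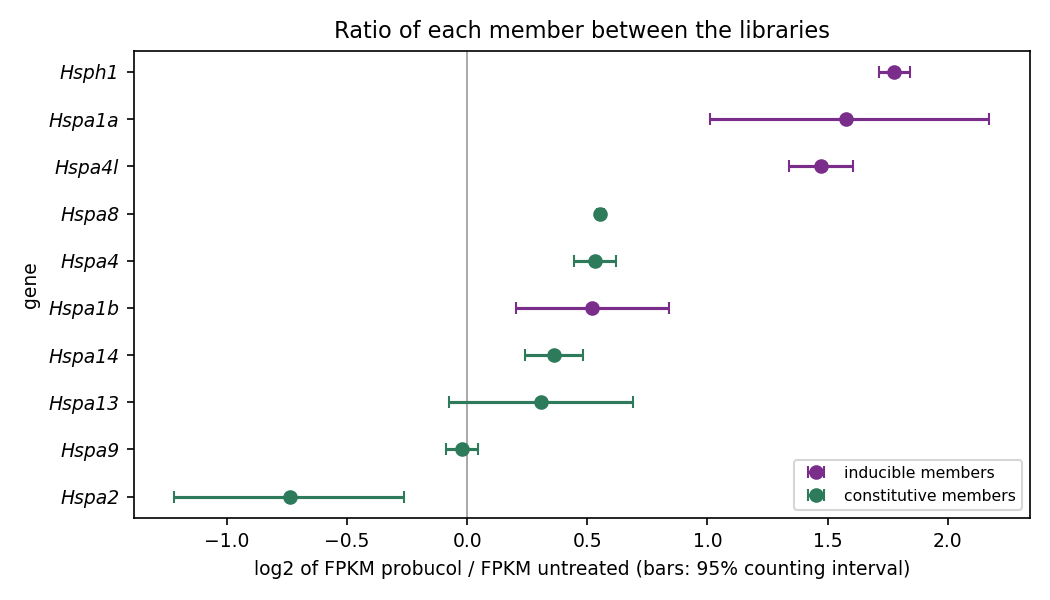
Log2 of the FPKM ratio of probucol over untreated for each gene, in order, with bars for the 95% counting interval and colours for the inducible and constitutive classes. Hsph1, Hspa1a and Hspa4l are apart at the top, Hspa1b lies among the constitutive genes, and the intervals of Hspa9 and Hspa13 hold 0. The split between Hspa1a and Hspa1b is uncertain.

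In absolute terms Hspa8 made up most of the difference. The summed level of the 10 genes was 4802 FPKM with probucol and 3195 FPKM untreated, a difference of 1607 FPKM, of which Hspa8 gave 1337 and Hsph1 212. Shares within the family do not depend on how the libraries were scaled to each other. Hspa8 held 87.3% of the summed level with probucol and 89.4% untreated. Hsph1 held 6.24% against 2.74%, Hspa4l 0.625% against 0.339%, and Hspa9 2.53% against 3.86%. The HSP110 genes together held 8.11% against 4.36%. For each FPKM of HSP110 message there were 10.8 FPKM of cytosolic HSP70 message with probucol and 20.6 FPKM untreated.

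**Figure D4:**
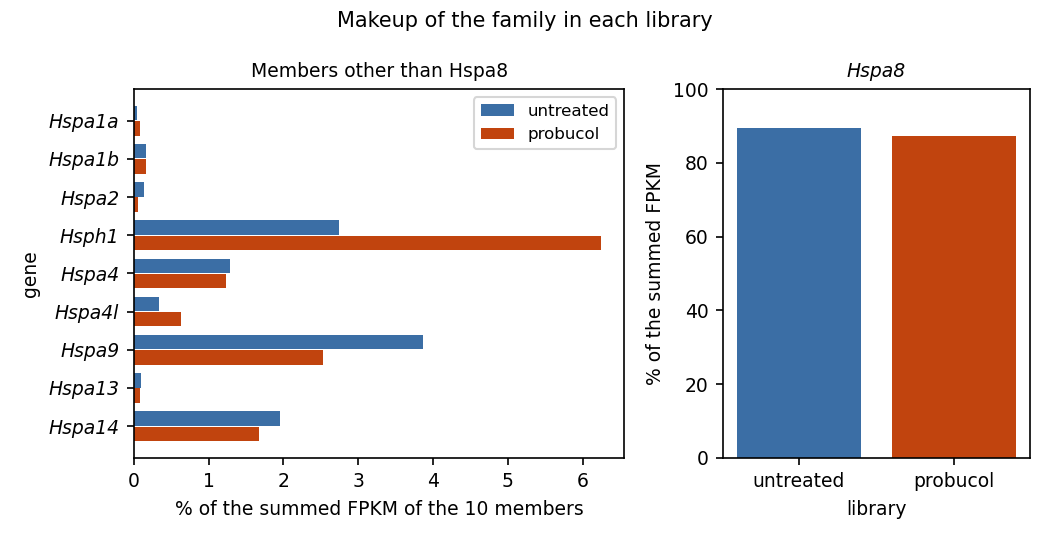
Share of the summed FPKM of the 10 genes held by each in the untreated and the probucol library, with Hspa8 on its own axis. Hsph1 holds 2.74% untreated and 6.24% with probucol, while Hspa9 holds 3.86% and 2.53%.

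Of the lists of genes that work with HSP70, 1 had the median furthest from equal. It holds HSP90 genes, co-chaperones, a ubiquitin ligase and the mitochondrial chaperonin. That list, like the others, was drawn up with earlier results of these data known. In it 8 of 8 genes were higher with probucol, against 52.7% of all genes compared. By at least 2-fold 4 were higher, against 1.62% of all genes compared, and the median log2 ratio was 0.97. Stip1, the HOP adaptor that bridges HSP70 and HSP90, measured 528 FPKM with probucol against 249.8 FPKM untreated, 2.12-fold higher (2.04 to 2.19). Chordc1, an HSP90 co-chaperone, was at 262 and 111 FPKM, 2.36-fold higher (2.27 to 2.46). The constitutive HSP90 gene Hsp90ab1 measured 2051 FPKM with probucol against 1104 FPKM and was 1.86-fold higher (1.83 to 1.89). Its inducible relative Hsp90aa1 measured 369 against 166 FPKM, 2.23-fold higher (2.15 to 2.30). The mitochondrial chaperonin gene Hspd1 measured 291 against 141 FPKM, 2.06-fold higher (1.98 to 2.16). Stub1, the ubiquitin ligase CHIP that sends HSP70 clients to the proteasome, was the lowest of the list, at a log2 ratio of 0.08.

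By their medians, J-domain proteins and the other exchange factors lay closer to all genes. Of 21 J-domain genes, 15 were higher and 6 lower, beside 52.7% of all genes compared that were higher. None was at least 2-fold apart, and the median log2 ratio was 0.15. Dnaja1, the most abundant, was at 439 and 266 FPKM, 1.65-fold higher (1.61 to 1.69). Dnajc8, next by the mean of both libraries, stood at 162 and 169.6 FPKM. Dnajb1, the classical heat-inducible HSP40, was at 166 and 141 FPKM, 1.17-fold higher (1.12 to 1.23). Of 10 exchange factors outside HSP110, 5 were higher and 5 lower, with a median of -0.03. Bag3, the stress-inducible member that links HSP70 to autophagy, was the 1 past 2-fold, at 21.5 and 10.2 FPKM, 2.11-fold higher (1.81 to 2.47). Bag1, the most abundant, was at 131 and 151 FPKM, 1.15-fold lower (1.07 to 1.24), and Hspbp1 was at 62.0 and 66.5 FPKM.

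The remaining chaperone lists were small. Of 5 other HSP70 superfamily genes 2 were compared: Hspa5, the BiP chaperone of the endoplasmic reticulum, at 461 and 359 FPKM, 1.28-fold higher (1.25 to 1.32), and Hyou1, its exchange factor, at 12.9 and 12.8 FPKM. Of the 10 small heat shock genes 4 were compared, 2 higher and 2 lower. Hspb1, the HSP27 gene, measured 6.20 FPKM with probucol against 2.73 FPKM, with a ratio of 2.27 (1.30 to 4.13) on about 43 and 19 fragments, and Hspb11, a ciliary transport gene despite its symbol, at 23.7 and 28.7 FPKM. Among heat shock factor genes, Hsf1, the main activator of the inducible genes, was at 59.9 and 41.4 FPKM, 1.45-fold higher (1.32 to 1.59), and Hsbp1, which encodes a factor-binding protein, was at 159 and 149.8 FPKM. Over all 60 genes of these lists, 48 were compared, 34 higher and 14 lower, beside 52.7% of all genes compared that were higher. On the scale of FPKM + 1, 5 were at least 2-fold higher and 0 at least 2-fold lower. Over all genes compared those shares were 1.62% and 1.98%. As plain ratios of FPKM, Hspb1 and Hspb9, a small heat shock gene with a ratio of 2.01 (0.511 to 9.36) on about 7 and 4 fragments, were past 2-fold too. Beside these counts stood the B cell list with 6 of 6 compared genes higher and the erythroid list with 10 of 10 lower.

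**Figure D5:**
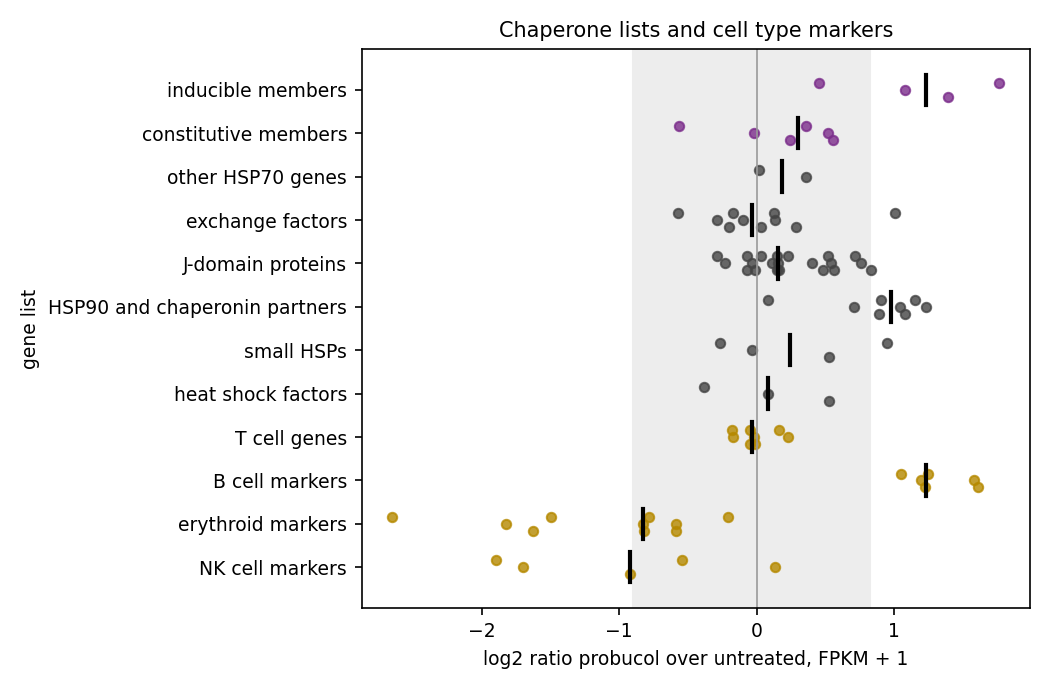
Log2 ratio of probucol over untreated on FPKM + 1 for each compared gene of the family, of the chaperone lists and of 4 marker lists, with a vertical bar at each list's median and grey for the middle 95% of all genes compared. The HSP90 and chaperonin partners (median 0.97) lie beside the inducible members (median 1.23), the J-domain proteins (median 0.15) and exchange factors (median -0.03) near 0, and the B cell and erythroid markers to either side.

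Genes with a ratio like that of Hsph1 or Hspa8 were looked up among 2150 genes outside the family with a mean FPKM of 50 or more, small RNA and predicted genes left out. Likeness here is the distance between log2 ratios over only 2 libraries. Nearest to Hsph1 were Ahsa2, a gene named for an HSP90 co-chaperone, at a distance of 0.34, the noncoding RNA Malat1 at 0.42 and Gdpd3 at 0.51. All 3 had a lower ratio than Hsph1. Nearest to Hspa8, all within 0.01, were Sap25 at 71.2 and 48.2 FPKM, Hsp90b1, the HSP90 of the endoplasmic reticulum, at 248 and 169 FPKM, and the kinase gene Sgk1 at 66.0 and 44.5 FPKM.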

How the data were processed

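The authors deposited FPKM values, a single one for each symbol in each library; the file headers name the unit. The submitters' processing notes name TopHat2 2.1.1, Bowtie2, Cuffdiff 2.2.1 and mm10, with no role or order; no annotation, filter or scaling of libraries is given in the sources used here. Per the labels' protocols, total RNA was turned into full-length cDNA with SMART-Seq HT and made into libraries with a Nextera kit. No molecular identifiers are named, so PCR copies count as fragments, which the counting intervals do not cover.

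Fragments were estimated from steps in low FPKM values of genes with 1 transcript of 800 to 10000 bp in GENCODE M21 (GRCm38, the assembly of mm10): 1 fragment was worth 0.0990 FPKM at 1 kb with probucol and 0.0995 untreated, after subtracting 230 and 220 bp. By these steps 78.2% and 77.9% of low values came to a whole fragment number within 0.1, against 20% by chance. Gene fragments used the median length of coding transcripts. Intervals of folds are exact Clopper-Pearson and those of levels exact Poisson, both at 95%; they cover counting error only. Log2 ratios are of FPKM + 1, which understates changes of low genes, over genes with a mean FPKM of 1 or more; printed folds are ratios of FPKM. No count model was fitted and no test run, with 1 library per group. Members, classes and lists were chosen with earlier results of these data known. Named outside the family were list genes at least 2-fold apart, the 2 most abundant of each list and the 3 nearest ratios; Stub1, Dnajb1, Hspb9 and Hspa1l were added after their values were seen. Coding sequences were aligned with Biopython 1.88; protein sequences were not used. Scripts ran in Python 3.11.15 and were checked on simulated data.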

Additional observations from a re-analysis of the deposited data

How the results depend on the processing

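The members at least 2-fold higher were 3 in the values as reported, 3 with pseudocount 0.1, with no filter, after rescaling to the same sum and after centring, and 2 with pseudocount 5, when only genes averaging at least 5 FPKM were kept (which drops Hspa1a, Hspa2 and Hspa13) and with Hspa1a and Hspa1b summed or left out. Leaving the pair out was chosen after seeing the data. Over all genes the share at least 2-fold higher was 1.62% as reported, 2.94% with pseudocount 0.1 and 0.516% with pseudocount 5. It was 1.03% when only genes averaging at least 5 FPKM were kept, and 1.17% to 1.69% in the other settings. Members at least 2-fold lower were 0 throughout, beside 1.98% of all genes as reported. The median log2 ratio of members stayed between 0.41 and 0.52. That of the inducible genes was 1.48 with pseudocount 0.1, 0.82 with pseudocount 5 and 1.58 without the pair; that of the constitutive genes was 0.44 under the stricter filter. Pseudocounts act most on low genes by construction: Hspa1a went from 1.08 to 0.49 with pseudocount 5. Of 73 single values under 8 settings, 1 changed sign (Hspa9, 0.00 after rescaling). Low depth limits Hspa1a, Hspa2 and Hspa13, which rest on 35 to 130 fragments. No paired analysis was possible because each group has 1 library.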
